A study of Mus musculus with 6 samples.

Results

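Pericyte marker genes were examined in cultured cardiac fibroblasts (CFs) of wild type (WT) and CharmeKO mice. The genes were chosen by symbol: *Cspg4*, *Mcam*, *Des*, *Rgs5*, *Kcnj8* and *Abcc9*, which mark pericytes and, with the exception of desmin (*Des*), are not part of a cytoskeletal or contractile structure. All 6 had a row among the 19446 genes of the deposited table. *Cspg4* had the largest difference of the 6: each CharmeKO library was below each WT library, with means of 1596 ± 1793 normalised reads in WT and 124 ± 109 in CharmeKO (SD, n = 3 each). Of all genes tested, 1.98% were separated in this way, and 2.14% with CharmeKO higher. *Cspg4* did not pass the adjusted threshold, and neither did any other member. The remaining 5 genes overlapped between the genotypes. *Mcam* and *Des* were highest in the libraries numbered 3 of both genotypes, and *Rgs5* was highest in the libraries numbered 2 of both.

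Pericytes are the mural cells that wrap capillaries and share the basement membrane with the endothelium. They are recruited to vessels by endothelial PDGF-B acting on the receptor PDGFRβ, and together with vascular smooth muscle cells they regulate vessel stability and flow. No gene marks them alone: the NG2 proteoglycan and PDGFRβ are also found on smooth muscle cells, glial progenitors or fibroblasts, so a panel of genes is normally used. In the heart, pericytes lie close to fibroblasts, and both can grow out of tissue explants.

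The cells came from 5-week-old mice. In CharmeKO, a polyadenylation signal was inserted into the gene of *Charme*, a long non-coding RNA, on the C57BL/6J background that the WT mice share, so every cell of the animal carries the change. CFs were grown out of pooled atrial fragments of littermates and kept for weeks on fibronectin in medium rich in serum, so each library stands for a culture and not for sorted cells. There were 3 WT and 3 CharmeKO libraries, written here as WT 1 to 3 and CharmeKO 1 to 3, and p-values measure the spread between these libraries.

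Each library held 38330019 to 46797446 reads in genes. Values are normalised reads, that is, reads divided by a size factor per library. The feature taken to be *Charme*, an inference from its lack of an Ensembl identifier, had 5, 15 and 11 reads in the WT libraries and 0, 6 and 3 in the CharmeKO libraries, too few to check a label. The fibroblast label was matched by *Col1a1*, with 1415 to 3048 RPKM (reads scaled to exon length and to the library total), and by the fibroblast receptor gene *Pdgfra*, with 9.64 to 24.6 RPKM. WT 2 stood apart in that its 10 genes with most reads took 13.5% of reads, against 7.25% to 9.79% in the other 5.

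Promoter windows are shown for 4 members, because the levels of the 6 genes followed different orders across the libraries: *Cspg4*, the member whose groups did not overlap; *Mcam*, highest in WT 3; and *Rgs5* and *Kcnj8*, highest in WT 2. The windows run from 250 bases before to 50 bases after the start site of the RefSeq gene (GRCm38.p6, 1 window for each of the 6 members) and are written 5′ to 3′ on the strand of the gene. They lie at chr9:56864854-56865153 on the plus strand for *Cspg4*, chr9:44134408-44134707 on the plus strand for *Mcam*, chr1:169655251-169655550 on the plus strand for *Rgs5* and chr6:142571565-142571864 on the minus strand for *Kcnj8*. Those of the other 2 lie at chr1:75360042-75360341 on the plus strand for *Des* and chr6:142702225-142702524 on the minus strand for *Abcc9*. Capitals mark matches to the motifs described after the sequences.

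Cspg4: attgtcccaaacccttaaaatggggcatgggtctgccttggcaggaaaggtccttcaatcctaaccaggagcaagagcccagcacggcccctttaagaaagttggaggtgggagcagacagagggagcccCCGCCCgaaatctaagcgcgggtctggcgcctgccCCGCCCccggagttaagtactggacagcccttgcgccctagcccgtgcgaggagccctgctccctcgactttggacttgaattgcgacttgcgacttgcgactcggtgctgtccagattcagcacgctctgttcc
Mcam: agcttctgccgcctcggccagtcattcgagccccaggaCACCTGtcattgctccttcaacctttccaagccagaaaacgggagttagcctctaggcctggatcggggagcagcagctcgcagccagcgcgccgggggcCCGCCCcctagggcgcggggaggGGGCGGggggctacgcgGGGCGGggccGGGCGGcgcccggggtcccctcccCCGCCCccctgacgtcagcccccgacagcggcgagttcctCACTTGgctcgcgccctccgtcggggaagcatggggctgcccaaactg
Rgs5: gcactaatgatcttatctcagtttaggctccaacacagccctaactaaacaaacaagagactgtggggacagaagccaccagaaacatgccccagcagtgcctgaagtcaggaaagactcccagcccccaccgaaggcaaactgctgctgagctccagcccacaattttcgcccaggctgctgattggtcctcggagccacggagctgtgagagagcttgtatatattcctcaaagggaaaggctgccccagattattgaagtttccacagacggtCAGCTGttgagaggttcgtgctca
Kcnj8: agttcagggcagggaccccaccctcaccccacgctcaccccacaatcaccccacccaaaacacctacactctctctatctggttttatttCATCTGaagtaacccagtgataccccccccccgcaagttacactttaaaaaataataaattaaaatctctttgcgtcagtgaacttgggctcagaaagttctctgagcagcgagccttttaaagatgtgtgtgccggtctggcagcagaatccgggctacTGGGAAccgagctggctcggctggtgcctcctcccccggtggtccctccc

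Motifs were searched on both strands of all 6 windows: the GC box (GGGCGG), the E box (CANNTG), a motif of the Notch effector RBPJ (TGGGAA), a motif of the TEAD factors (GGAATG) and the CArG box of serum response factor. The GC box was found in *Cspg4* (2 matches), *Mcam* (5), *Des* (2) and *Abcc9* (1), and in 35.7% of all 32851 RefSeq promoter windows of the mouse. An E box was found in every member except *Cspg4*, and in 72.3% of all windows. The RBPJ motif was found in *Kcnj8* and *Abcc9* and in 25.6% of all windows, and the TEAD motif in *Abcc9* alone, where it overlapped the RBPJ match, and in 14.7% of all windows. No member window held a CArG box, which 1.63% of all windows did. The GC content was 60.0% for *Cspg4*, 72.7% for *Mcam*, 65.3% for *Des*, 52.3% for *Rgs5*, 53.3% for *Kcnj8* and 65.7% for *Abcc9*; the median of all windows was 52.7%. These matches are descriptions of the letters in the windows.

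The level of these genes was low beside that of the fibroblast genes. Per length, *Mcam* had a median over the 6 libraries of 0.980 RPKM (0.495 to 19.4), *Cspg4* 0.679 (0.0519 to 7.26), *Des* 0.609 (0.167 to 8.28) and *Rgs5* 0.339 (0.157 to 5.36). The channel genes were lower still, with a median of 0.0821 RPKM for *Kcnj8* (0.0439 to 0.635) and 0.0187 for *Abcc9* (0 to 0.0530). The ranges of *Mcam*, *Cspg4*, *Des* and *Rgs5* overlapped widely, so their order is not resolved beyond the spread between libraries. *Pdgfrb*, the PDGF-B receptor gene of pericytes and fibroblasts, had a median of 112.5 RPKM (74.7 to 124), far above all 6. By mean RPKM over the libraries, *Mcam* was above 52.8% of the genes tested, *Des* above 45.4%, *Cspg4* above 36.6%, *Rgs5* above 32.1%, *Kcnj8* above 10.8% and *Abcc9* above 0.283%.

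**Figure D1:**
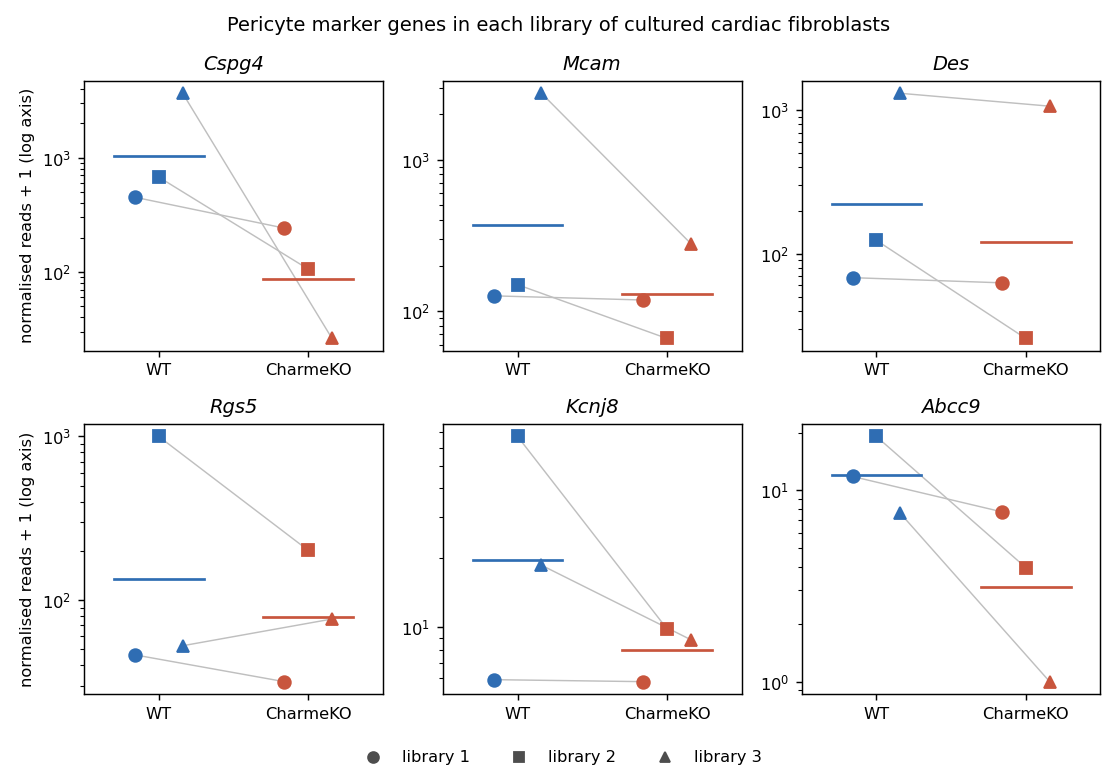
Normalised reads + 1 (log axis) of the 6 pericyte marker genes in the 3 WT (blue) and 3 CharmeKO (red) libraries of cultured CFs. Marker shapes give the library number, grey lines join libraries of equal number, and horizontal bars are the means of log2(value + 1) returned to the linear scale; in *Cspg4* the groups do not overlap, and in the other 5 genes they do.

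*Cspg4* (ENSMUSG00000032911) encodes NG2, a membrane-spanning chondroitin sulphate proteoglycan of pericytes and glial progenitors. It had 450, 676 and 3663 normalised reads in WT 1, 2 and 3, and 241, 105 and 25.2 in CharmeKO 1, 2 and 3. The groups did not overlap: WT 3 was the highest library, CharmeKO 3 the lowest with 29 reads, and the spread within each group was wide, at 8.14-fold in WT and 9.57-fold in CharmeKO. On the log2 scale the fold change of CharmeKO over WT was -3.56 (SE 1.05, adjusted p = 0.9999, limma). Its SE was 1.25 with the library numbers as a block (adjusted p = 0.7997, limma). An exact permutation test over the libraries gave p = 0.1, the smallest value that 3 against 3 libraries allow. The difference was 1.86-fold in the pair numbered 1, 6.42-fold in pair 2 and 145-fold in pair 3, in each case with the CharmeKO library lower. Of the 15948 genes tested, 636 (3.99%) had a difference as low or lower in pair 1, 117 (0.73%) in pair 2 and 16 (0.10%) in pair 3, each a comparison of 1 library with 1.

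No gene passed the adjusted threshold in limma (0% called), so the members were also counted at an unadjusted threshold of 0.05. *Cspg4* was the 1 member past it among 143 genes (0.897% of those tested), 103 of them lower in CharmeKO (0.646%). With the replicate number as a block, *Cspg4* and *Abcc9* were among the 3.23% of genes lower in CharmeKO at the unadjusted threshold of limma, and 0 genes passed the adjusted one. *Abcc9* had entered the test only through WT libraries. With the same block, edgeR put 0 of the 6 members and 768 of the 15948 genes past the unadjusted threshold. DESeq2 with the same block put 2 of the 6 past the unadjusted threshold, *Cspg4* and *Mcam*, both lower in CharmeKO. That fit put 891 of the 15948 genes past it, 593 of them lower in CharmeKO, and 0 of the 6 members past the adjusted threshold. Groups that did not overlap, with CharmeKO lower, were found in 1.98% of tested genes, of which *Cspg4* was the 1 member, and with CharmeKO higher in 2.14%, none of them a member. edgeR's quasi-likelihood test gave *Cspg4* an adjusted p of 1.00, and DESeq2 an adjusted p of 0.136. With any 1 library left out, the log2 fold change of *Cspg4* lay between -4.30 and -2.66.

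*Mcam* (ENSMUSG00000032135) encodes CD146, an adhesion receptor of the immunoglobulin superfamily that mural and endothelial cells carry and that binds laminin chains and Wnt5a. It had 125, 148 and 2754 normalised reads in WT 1, 2 and 3, and 117, 64.9 and 278 in CharmeKO 1, 2 and 3. WT 3 stood far above all others, the next library was CharmeKO 3, and the groups overlapped. Its log2 fold change was -1.53 (SE 1.24, limma; exact permutation p = 0.4), and without WT 3 it was -0.083. Leaving out WT 3 also leaves CharmeKO 3 without its pair. Within pairs the difference was -0.09, -1.18 and -3.30 on the log2 scale for numbers 1, 2 and 3. The SE of the fold change was 0.65 with the library numbers as a block (adjusted p = 0.7997, limma).

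*Des* (ENSMUSG00000026208) encodes desmin, the intermediate filament of muscle cells that pericytes also make. It had 67.0, 122.8 and 1315 normalised reads in the WT libraries and 61.5, 24.6 and 1069 in the CharmeKO libraries, in the order of the library numbers. Both libraries numbered 3 were high, WT 3 at 1197 reads and CharmeKO 3 at 1229 reads, and the other 4 were low. Its log2 fold change was -0.90 (SE 1.65, limma; exact permutation p = 0.5), and it became 0.38 without WT 3 and 0.21 without CharmeKO 2, which each leave a library without its pair. Within pairs it was -0.12, -2.27 and -0.30 for numbers 1, 2 and 3. The SE of the fold change was 0.50 with the library numbers as a block (adjusted p = 0.7997, limma). *Des* was thus high in CharmeKO 3, the library in which *Cspg4* was lowest. In CharmeKO 3, *Cspg4* took 1.73% of the summed reads of the 6 members, against 46.9% in WT 3. The share was 64.0% and 33.3% in WT 1 and 2, and 52.2% and 25.8% in CharmeKO 1 and 2, so the groups overlapped.

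*Rgs5* (ENSMUSG00000026678) encodes a GTPase-activating protein that shortens signalling by heterotrimeric G proteins and is a standard pericyte marker. It had 45.3, 997 and 51.6 normalised reads in the WT libraries and 30.8, 201 and 75.7 in the CharmeKO libraries, in the order of the library numbers. WT 2 was the highest, CharmeKO 2 followed, and the remaining 4 libraries lay between 30.8 and 75.7, so the groups overlapped. The log2 fold change was -0.77 (SE 1.31, limma; exact permutation p = 0.7), and without WT 2 it was 0.68. Its SE was 0.60 with the library numbers as a block (adjusted p = 0.8170, limma). *Rgs5* was the 1 member higher in the CharmeKO library of a pair, by 0.54 on the log2 scale in pair 3.

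*Kcnj8* (ENSMUSG00000030247) and *Abcc9* (ENSMUSG00000030249) encode the pore Kir6.1 and the sulphonylurea receptor SUR2 of the ATP-sensitive potassium channel of mural cells. In the GENCODE M21 annotation (GRCm38) they are neighbours on chromosome 6, on the minus strand, 16.2 kb apart with no gene between. Both entered the test only through WT libraries, since no CharmeKO library reached 10 reads, so their lower values in CharmeKO are in part set by that filter. Of *Kcnj8*, 5, 62 and 16 reads were counted in WT 1, 2 and 3, and 5, 9 and 9 in the CharmeKO libraries. WT 2 was highest, and WT 1 was below 2 CharmeKO libraries. The log2 fold change was -1.29 (SE 0.94, limma; exact permutation p = 0.3), and without WT 2 it was -0.40. Its SE was 0.67 with the library numbers as a block (adjusted p = 0.7997, limma).

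Of *Abcc9*, 11, 17 and 6 reads were counted in the WT libraries and 7, 3 and 0 in the CharmeKO libraries, in the order of the library numbers. Within pairs, the ratio of WT over CharmeKO was 1.61 in pair 1 (95% exact counting interval 0.570 to 4.90) and 6.15 in pair 2 (1.78 to 32.8), and no ratio is given for pair 3, with 6 reads against 0. WT 3, at 6 reads, lay between CharmeKO 1 and CharmeKO 2, so the groups overlapped. Its log2 fold change was -1.94 (SE 0.91, limma; exact permutation p = 0.2), and with the library numbers as a block the adjusted p was 0.7997 (limma). With 0 reads in CharmeKO 3, a level of up to 0.0641 CPM (reads scaled to the library total) is possible there.

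The ratio of *Kcnj8* to *Abcc9* asks whether the subunit genes of the channel kept their proportion. On the log2 scale it was 0.70 ± 1.49 in WT and 1.35 ± 1.78 in CharmeKO (SD, n = 3 each), a difference of 0.65 (exact permutation p = 0.6). The ratio differed by less than its spread between libraries, and at these counts a change of the proportion was not detectable. For *Cspg4* over *Pdgfrb*, both pericyte surface genes, the log2 ratio was -4.51 ± 2.00 in WT and -8.13 ± 1.73 in CharmeKO, a difference of -3.62 (exact permutation p = 0.1, the smallest possible). For *Cspg4* over *Mcam* it was 1.48 ± 0.94 in WT and -0.56 ± 2.47 in CharmeKO, a difference of -2.04 (exact permutation p = 0.3), and the groups overlapped, through CharmeKO 1 at 1.03 and WT 3 at 0.41. The ratios of *Cspg4* were not part of the plan. *Pdgfrb* had a log2 fold change of 0.05, so the ratio to it repeats the difference of *Cspg4* and adds no separate result.

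**Figure D2:**
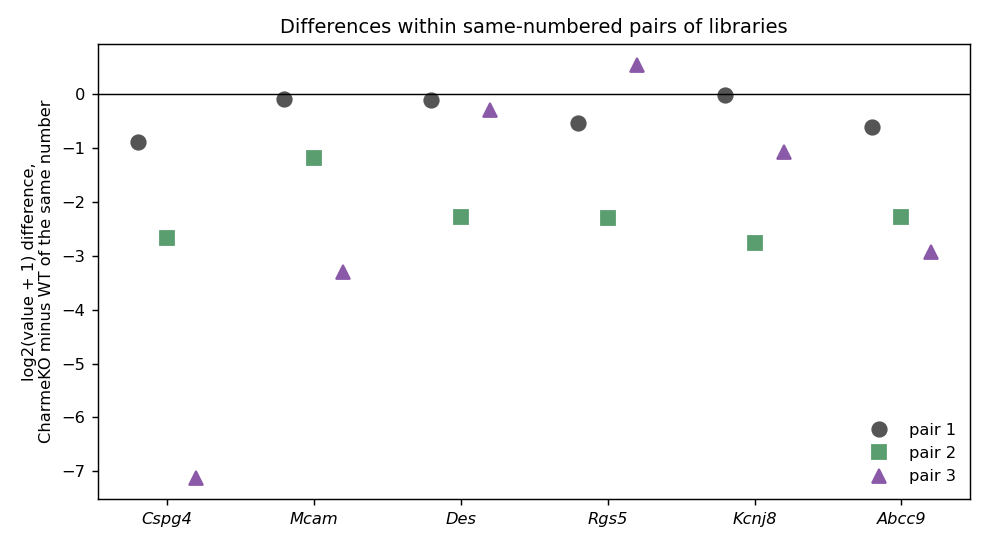
Difference in log2(value + 1), CharmeKO minus WT of the same library number, for each of the 6 genes (y axis, log2 units; x axis, genes). Circles, squares and triangles are pairs 1, 2 and 3; all differences are below 0 except that of *Rgs5* in pair 3, and that of *Cspg4* in pair 3 is the lowest at -7.13.

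Across the 6 genes, CharmeKO was lower in all 3 same-numbered pairs for *Cspg4*, *Mcam*, *Des*, *Kcnj8* and *Abcc9*; of all genes tested, 14.04% (2239) were lower in all 3 pairs and 16.4% higher. All 6 members had a log2 fold change under 0, as did 49.6% of tested genes, and 4 had one of -1 or less (*Cspg4*, *Mcam*, *Kcnj8* and *Abcc9*), as did 3.69%. In each of these counts *Kcnj8* and *Abcc9* carry the limit that they passed the filter only through WT libraries, so nothing is read from them. In pair 1 the differences were -0.90 for *Cspg4*, -0.61 for *Abcc9*, -0.54 for *Rgs5*, -0.12 for *Des*, -0.09 for *Mcam* and -0.03 for *Kcnj8* on the log2 scale. In pair 2 they ran from -2.77 for *Kcnj8* to -1.18 for *Mcam*.

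The libraries varied by number as well as by genotype, and the members differed in the shares of these sources and of the remainder. The genotype took 64.7% of the variance of log2(value + 1) of *Cspg4* and 51.0% of that of *Abcc9*, and the library number 0.326% and 36.1%. For *Des* and *Rgs5* the number took 90.3% and 82.6% and the genotype 4.44% and 5.23%, and for *Mcam* the number took 66.2% and the genotype 19.2%. *Kcnj8* lay between, with 50.8% for the number and 27.9% for the genotype. *Kcnj8* and *Abcc9* passed the filter only through WT libraries, so nothing is read from their genotype shares. Over all genes tested the medians were 73.8% for the number and 5.91% for the genotype. What libraries of equal number share is not given in the sources used here.

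**Figure D3:**
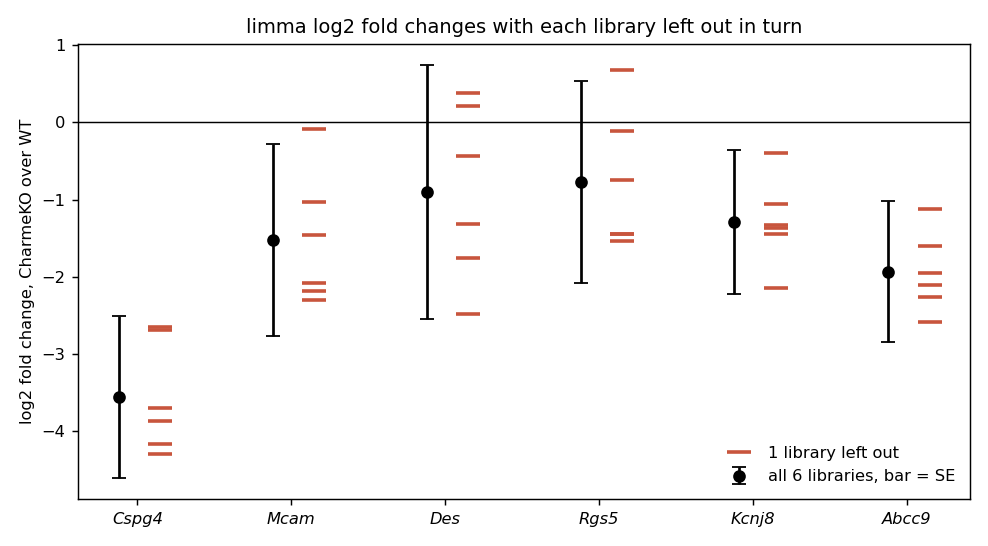
log2 fold change of CharmeKO over WT from limma for each of the 6 genes, with all libraries (black dots, bars are SE) and with each library left out in turn (red dashes). Those of *Cspg4* stayed between -4.30 and -2.66, whereas those of *Des* and *Rgs5* lie on both sides of 0.

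The other genes of the pericyte programme had fold changes on both sides of 0. Of 25 genes of this kind, 22 were tested, 13 had a lower and 9 a higher value in CharmeKO, none passed the adjusted threshold in limma, and 1 passed the unadjusted threshold, with a median log2 fold change of -0.18 against 0.0022 over all genes tested. *Pdgfrb* had 28861, 26737 and 17317 normalised reads in the WT libraries and 24065, 22663 and 27193 in the CharmeKO libraries, and its log2 fold change was 0.05. *Cd248*, which encodes endosialin, a surface protein of pericytes and fibroblasts, had -0.19, and *Nes*, for the filament nestin, -1.27 (SE 0.75, limma), with 10475 normalised reads in WT 3 and 796 to 2947 in the other 5 libraries. The summed level of the list was 1284 to 1379 CPM in WT and 1167 to 1304 in CharmeKO, of which *Pdgfrb* and *Cd248* were the most abundant genes, and that of the 6 members was 16.5 to 185 and 10.4 to 35.8. The median difference of the list within pairs 1, 2 and 3 was -0.09, -0.007 and -0.84 on the log2 scale. In these bulk cultures, fewer pericytes and less RNA per cell cannot be told apart.

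*Tbx2*, which encodes a T-box repressor, was the gene of that list with the lowest p. It had 259, 564 and 1678 normalised reads in WT 1, 2 and 3, and 253, 109 and 92.2 in CharmeKO 1, 2 and 3. The groups thus did not overlap, with CharmeKO lower, as in 1.98% of all genes tested. Its log2 fold change was -2.19 (SE 0.73, adjusted p = 0.9999, limma). Its order across the libraries was that of *Cspg4* in all 6. *Gja4*, for the gap junction protein connexin 37, had 1.52 (SE 0.95, limma) at 1.07 to 23.5 normalised reads.

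Genes that work with *Cspg4* and *Mcam* were described next. Of 14 partners other than the members (laminin chains, integrins, proteoglycans, Wnt5a), 13 were tested, 8 were lower and 5 higher in CharmeKO, with a median log2 fold change of -0.22. *Wnt5a*, the ligand that binds CD146, had 1700, 2461 and 2174 normalised reads in the WT libraries and 1362, 909 and 1009 in the CharmeKO libraries. The groups did not overlap, with CharmeKO lower, as in 1.98% of all genes tested. The log2 fold change of *Wnt5a* was -0.95 (SE 0.23, adjusted p = 0.9999, limma), and it was the 1 gene of these 13 past the unadjusted threshold. *Itgb1*, for integrin β1, had -0.55, *Lgals1*, for galectin-1, 0.09, and the aggrecan gene *Acan* -1.47; none of these 3 passed the unadjusted threshold.

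Of the 10 genes that form or bind intermediate filaments, other than *Des*, 9 were lower and 1 higher in CharmeKO, 6 were lower in all 3 pairs, and 0 passed the unadjusted threshold in limma. The median log2 fold change was -0.33. *Sync*, which encodes the desmin-binding syncoilin, had 1043, 503 and 850 normalised reads in the WT libraries and 943, 170 and 146 in the CharmeKO libraries, and its log2 fold change was -1.41 (SE 0.74, limma). It was low in CharmeKO 3, where *Des* was high. The dystrophin gene *Dmd* had -1.02, *Plec* -0.43, *Vim* -0.23 and *Lmna* -0.10, and *Cryab*, for a chaperone of desmin, was the 1 higher gene at 0.34; *Cryab* was named after its value was seen.

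Of the 7 tested R4 family genes related to *Rgs5*, 4 were lower and 3 higher in CharmeKO, with a median log2 fold change of -0.17. *Rgs16* had 758, 1761 and 2418 normalised reads in the WT libraries and 995, 5905 and 347 in the CharmeKO libraries, so it was highest in CharmeKO 2 and not in WT 2. *Rgs4*, which is also found in pericytes and was named after its values were seen, had 7.88, 64.1 and 17.6 in the WT libraries and 2.88, 68.8 and 46.1 in the CharmeKO libraries. *Rgs2*, *Rgs3*, *Rgs8* and *Rgs1* had log2 fold changes of -0.17, 0.06, -1.53 and -0.96, none past the unadjusted threshold in limma.

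Of the inward rectifier genes other than the members, *Kcnj15* and *Kcnj2* were tested. *Kcnj15* had 2228, 1409 and 915 normalised reads in the WT libraries and 1352, 399 and 226 in the CharmeKO libraries. The groups overlapped, through WT 3 and CharmeKO 1, and each CharmeKO library was below the WT library of its number. On the log2 scale its fold change was -1.52 (SE 0.68, adjusted p = 0.9999, limma). DESeq2 fitted with the block gave it an adjusted p of 0.00138, in a fit that called 64 genes (0.401% of those tested) and 0 of the 6 members. *Kcnj2*, for the strong rectifier Kir2.1, had a log2 fold change of 0.15.

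The signals that recruit pericytes (PDGF, angiopoietin, Notch, TGF-β and EGF receptor genes) showed no common direction: of 25 genes tested, 13 were lower and 12 higher, with a median log2 fold change of -0.005. *Hey1*, a Notch target gene, had -1.60 (SE 0.74, limma) at 2.61 to 27.6 normalised reads. *Hbegf*, for an EGF receptor ligand that acts on mural cells, had 2356, 1200 and 1374 normalised reads in the WT libraries and 1440, 875 and 720 in the CharmeKO libraries. Its log2 fold change was -0.70 (SE 0.36, adjusted p = 0.9999, limma), and its adjusted p was 0.0359 in DESeq2 with the block. *Pdgfd* had -0.98, *Egfr* 0.36 and *Eng* 0.08, none past the unadjusted threshold in limma.

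Smooth muscle markers are given beside the members, because their fold changes had the same sign. Of 20 contractile genes, 18 were tested and all 18 had a log2 fold change under 0, as did 49.6% of all genes tested. The median was -1.22, but the median difference within pairs 1, 2 and 3 was -0.015, -0.57 and -2.50. In all 3 pairs 7 of the 18 were lower, as were 14.04% of all genes tested. In limma 0 passed the adjusted threshold, and 1, *Actg2*, passed the unadjusted threshold. DESeq2 with the block called *Actg2* (adjusted p = 8.5e-07) and *Myh11* (adjusted p = 0.00060), a myosin gene named after its value was seen. Their summed level was 7169, 3147 and 11443 CPM in the WT libraries and 6951, 2672 and 3407 in the CharmeKO libraries, so that WT 3 was highest as for *Cspg4*, *Mcam* and *Des*. *Acta2*, the smooth muscle actin gene of myofibroblasts and mural cells, had a log2 fold change of -1.60 (SE 1.19, limma), and *Actg2* -2.40 (SE 0.75, limma). *Lmod1*, *Itga8*, *Cald1* and *Tpm1* had -1.80, -2.40, -0.29 and -0.42. The part of contractile cells in the values of the pericyte genes was not tested.

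Of the endothelial genes, 7 of 12 were tested, 4 lower and 3 higher, with a summed level of 64.1 to 95.1 CPM in WT and 31.4 to 149 in CharmeKO. The defining gene *Cdh5* was at or under 1.04 CPM in every library and at 0 in WT 2 and CharmeKO 3, and *Pecam1* was at or under 0.157. *Flt1*, *Vwf* and *Kdr* had log2 fold changes of -0.54, -0.34 and -0.83, and *Esam* 1.41. Of 15 fibroblast genes, 9 were lower and 6 higher, with a median of -0.23 and a summed level of 21079 to 42167 CPM in WT and 27212 to 40406 in CharmeKO. *Col1a1*, *Col1a2* and *Vim* had log2 fold changes of 0.16, 0.25 and -0.23, and *Thy1*, *Gsn* and *Ddr2* -1.34, -0.32 and -0.23. DESeq2 with the block called 1 gene of this list, *Dpt*, for the matrix protein dermatopontin (log2 fold change 0.84 in that fit, adjusted p = 0.0190), which was named after its value was seen. *Thy1* was also highest in WT 3, with 29470 normalised reads, and lowest in CharmeKO 3, with 2658.

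**Figure D4:**
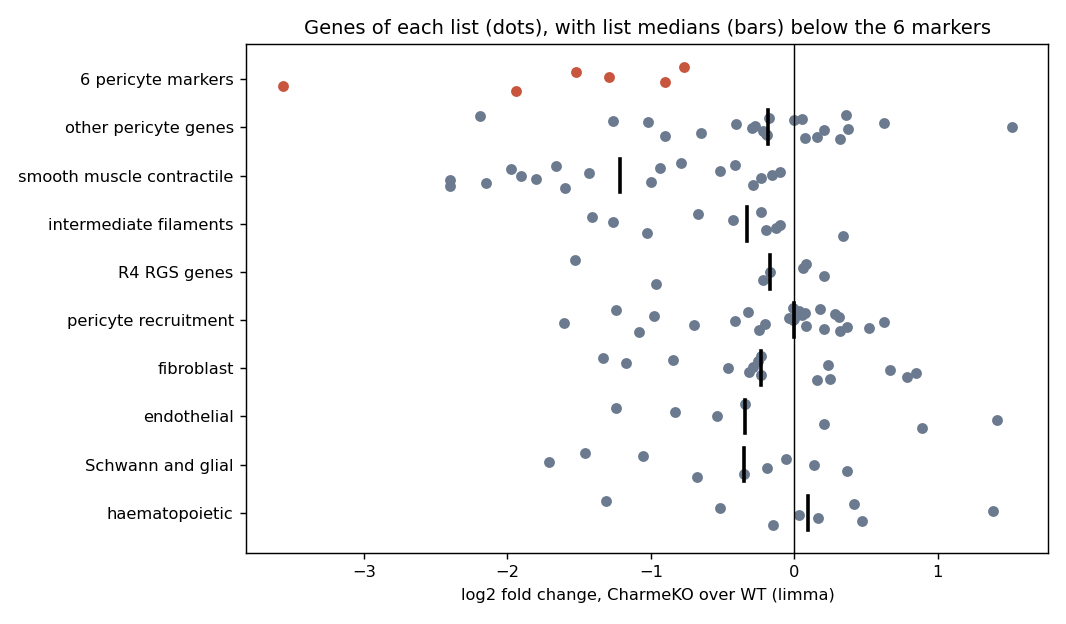
log2 fold change of CharmeKO over WT from limma (x axis) for each tested gene of the 6 pericyte markers (red) and of 9 other lists (grey; markers left out of them). Black bars are list medians; the smooth muscle genes all lie below 0 with a median of -1.22, and the other pericyte genes lie on both sides of 0 with a median of -0.18.

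For each member, the 3 genes with the most similar levels over the 6 libraries were found among 11542 genes with a mean of at least 100 normalised reads, by Pearson's r of log2(value + 1), which is a description and carries no test. For *Cspg4* they were *Plac8* (r = 0.986), *Sytl2* (0.983) and *Gpat3* (0.982). *Plac8* had 1524, 1436 and 3608 normalised reads in the WT libraries and 1288, 648 and 352 in the CharmeKO libraries, a smaller range in the same direction. For *Mcam* they were *Btbd3* (0.993), *Galnt18* (0.987) and *Sh3kbp1* (0.983), and for *Des* *Mycl* (0.998), *Erc1* (0.994) and *Pkn3* (0.990). *Mycl* had its highest values in WT 3 (413 normalised reads) and CharmeKO 3 (370), against 30.5 to 92.9 in the other 4 libraries.

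For *Rgs5* the most similar gene was *Mme* (r = 0.998), which encodes the membrane protease neprilysin, CD10. It had 115.2, 1431 and 141 normalised reads in the WT libraries and 97.1, 370 and 171 in the CharmeKO libraries, and thus the same high libraries, WT 2 and CharmeKO 2. *1700017B05Rik* (0.995) and *Ncbp3* (0.994) followed. For *Kcnj8* they were *Usp3* (0.994), *Mndal* (0.994) and *6820431F20Rik* (0.988), and for *Abcc9* *Arhgef11* (0.986), *Wwp2* (0.982) and *Plscr2* (0.982). A high r over 6 libraries was common: between 64 and 290 of the genes had an r of at least 0.9 with a given member.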

How the data were processed

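The deposited table gives a normalised signal per gene. The authors aligned reads of directional poly(A) libraries with STAR, counted them per gene on the reverse strand on an Ensembl annotation with *Charme* added (GRCm39 and GRCh38 are named in the submitters' processing notes), removed genes with few reads and divided by DESeq2 size factors. Strand was used, so genes on the opposite strand of *Mcam*, *Des* and *Abcc9* do not share their reads, and no member overlaps a gene on its own strand.

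Whole reads were recovered from each library's steps: 100% of 116676 values were whole within 1e-06. Totals were 38330019 to 46797446 reads, and 0 reads allow up to 3 reads (0.0641 to 0.0783 CPM); intervals and limits cover counting error only, since reads without molecular identifiers are not independent molecules. RPKM used GENCODE M21 exon lengths (15908 of 15948 tested genes). The main test was limma-trend (limma 3.58.1) on log2(value + 1), genotype only, over the 15948 genes that reached 10 reads in 2 libraries or more, two-sided, with Benjamini-Hochberg adjustment over all of them and a threshold of 0.05; the log2(value + 1) scale understates changes of low genes. Alternatives were edgeR 4.0.16 (quasi-likelihood, TMM) and DESeq2 1.42.0 on the recovered reads, the block, other pseudocounts, scalings and filters, and each library left out. Single ratios used two-sided exact permutation tests (scipy 1.17.1), and the 3 ratios computed are without adjustment. Scripts were tested on simulated data (R 4.3.3, Python 3.11.15, matplotlib 3.10.9).

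After group means were subtracted, WT and CharmeKO libraries of equal number correlated with r = 0.762, 0.514 and 0.217 across genes, all above 0.1 (other pairings -0.643 to 0.222). The numbers were taken to pair the libraries. WT 2 with CharmeKO 3 gave 0.222, above the 0.217 of pair 3. The check thus does not single out pair 3, and differences within it and the block rest on the labels. Members and gene lists were chosen with earlier results of these data known. In each list the text names the 3 genes with the highest mean and the 3 with the lowest p, and for each member the 3 genes most similar to it; the text says where another gene was picked with its values known, and 1 gene that the rule names is not reported here. Promoter sequences are RefSeq's (GRCm38.p6), with coordinates of that build and not of the authors' files. Some list genes, such as *Higd1b* and *Vtn* of the pericyte list, had no row in the deposited table. Native CFs were not analysed here.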

Additional observations from a re-analysis of the deposited data

How the results depend on the processing

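The number of members past the adjusted threshold was 0 in limma, edgeR and DESeq2, with or without the replicate block, and in all other alternatives. For all genes it was 0 in limma and edgeR, 8 in DESeq2 and 64 in DESeq2 with the replicate block. DESeq2 gave no p for *Mcam* and *Des* without the block. With the replicate block the log2 fold change of *Cspg4* was -3.56 in limma (adjusted p = 0.7997), -3.23 in edgeR and -3.27 in DESeq2 (adjusted p = 0.515), and the block changed no call of a member at the adjusted threshold. *Cspg4*, *Mcam*, *Kcnj8* and *Abcc9* kept their direction in all alternatives, with ranges when a library was left out of -4.30 to -2.66, -2.31 to -0.083, -2.15 to -0.40 and -2.59 to -1.12. *Kcnj8* and *Abcc9* passed the filter only through WT libraries, so nothing is read from their direction. The direction of *Rgs5* (-1.54 to 0.68) and of *Des* (-2.48 to 0.38) turned when WT 2, and WT 3 or CharmeKO 2, was left out without the block. The *Kcnj8* to *Abcc9* log2 ratio difference of 0.65 became -0.0023 with a pseudocount of 5 and ran from -0.25 to 1.53 with a library left out, and an exact permutation test over the pairs (replicate block) gave p = 0.5, where the smallest possible is 0.25. The edgeR fold change of *Mcam* was -2.71, of *Rgs5* -1.84 and of *Kcnj8* -2.03, each over 1.5 times that of limma, and that of *Des* was -0.37; the cause was not tested. The log2 fold change of *Abcc9* was -1.06 with a pseudocount of 5. Depth limits *Kcnj8* and *Abcc9*, at 62 reads or fewer in every library.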

Other observations

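Marker genes of several other cell types had reads in the cultures, and whether those cells were present was not tested. The haematopoietic genes had a summed level of 184, 112.8 and 43.7 CPM (reads scaled to the library total) in WT 1, 2 and 3, and of 393, 317 and 24.8 in CharmeKO 1, 2 and 3. *Lyz2*, the lysozyme gene of macrophages, had 12791 and 10470 normalised reads in CharmeKO 1 and 2, and 278 in CharmeKO 3, the library in which *Cspg4* was lowest. Of the 8 tested, 3 were lower and 5 higher, and *Csf1r*, *Cd68*, *Cd14*, *Fcgr1* and *Ptprc* had log2 fold changes of 0.03, 0.16, 0.47, 1.38 and -1.31, none past an unadjusted threshold of 0.05 in limma. The mesothelial uroplakin gene *Upk1b* had 4648 and 4430 normalised reads in WT 1 and CharmeKO 1, and 20.9 to 307 in the other 4 libraries, and *Upk3b* and *Cd34* were likewise highest in both libraries numbered 1. Of the 7 tested adventitial and mesothelial genes, 5 were lower and 2 higher; *Krt19* had -0.75 and *Pi16* 1.45.

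Schwann cell and glial genes, of interest because glial progenitors also carry NG2, had a summed level of 9.38 to 27.8 CPM in WT and 3.78 to 36.4 in CharmeKO. *Sox10* had 49.2 and 67.3 normalised reads in WT 1 and CharmeKO 1, 4.27 and 4.39 in WT 2 and 3, and 0 in CharmeKO 2 and 3. *Ngfr* was also highest in both libraries numbered 1. Of the 9 tested, 7 were lower and 2 higher; *Mbp* and *S100b* had log2 fold changes of -0.19 and -1.06.

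Cardiomyocyte genes were sparse, at 5.61 to 18.5 CPM in WT and 5.81 to 24.5 in CharmeKO in sum, of which *Tnnt2* had 1.35 to 17.6. Of the 12 genes of this list 6 had a row in the deposited table, and *Myh6*, *Myh7* and *Actc1* were among those without one. Of the 4 tested, 1 was lower and 3 higher; *Tnni3*, *Myl4* and *Actn2* had log2 fold changes of 0.20, 0.05 and -0.47. The skeletal muscle lineage genes had 2.20 to 24.7 CPM in WT and 1.18 to 2.54 in CharmeKO. Of the 11 genes of this list 4 had a row, and *Myod1*, *Myog* and *Pax7* were among those without one. All 3 tested were lower, *Acta1* by a log2 fold change of -2.82 (SE 1.84, limma), *Tnnt3* by -1.03 and *Tnnt1* by -0.65. *Acta1* had 910 normalised reads in WT 3 and 1.97 to 60.6 in the other 5 libraries, and thus the same highest library as *Cspg4*, *Mcam* and *Des*.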
